A study of Mus musculus with 4 samples.

Results

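NRF2 and the genes of the antioxidant response were followed in mouse brown preadipocytes with and without the histone methyltransferase MLL4, before and during adipogenesis. The 10 genes were Nfe2l2, which encodes NRF2, and Hmox1, Nqo1, Gclc, Gclm, Txnrd1, Srxn1, Slc7a11, Gsta4 and Gpx3. They were found by symbol among the 22463 gene symbols of the RNA-Seq files, and each is represented by its RefSeq transcript with most reads over the libraries. Reads on exons were counted in 4 libraries, 1 for each condition, which leaves every difference without a replicate check and without a p-value. All cells came from 1 line of the C57BL/6J background, isolated from the brown fat of E18.5 embryos, immortalized with SV40 large T antigen, and of the genotype Mll3-/-Mll4 f/f. The Ad-GFP cells, infected with an adenovirus for green fluorescent protein, keep the floxed Mll4 alleles. The labels call them WT, but they lack MLL3 as do all the others. The Ad-Cre cells received Cre recombinase from the same kind of virus, which deletes part of Mll4. Day 0 cells were confluent and not yet induced, and day 2 cells had been given insulin, T3, indomethacin, dexamethasone and IBMX, the adipogenic cocktail.

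NRF2 is a transcription factor that the adaptor protein KEAP1 holds in the cytoplasm and hands to a ubiquitin ligase. When oxidants or electrophiles modify KEAP1, NRF2 escapes destruction, enters the nucleus, pairs with a small MAF protein and binds antioxidant response elements beside its target genes, where BACH1 can occupy the same elements as a repressor. The activity of NRF2 is therefore set largely by protein stability, which read counts of its mRNA do not measure. Fat cells that begin to store lipid also make hydrogen peroxide, and products of these genes supply glutathione and reduced thioredoxin for its removal.

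Mapped reads ran from 17198448 to 22986362 per library, and 3 reads on a transcript of 1000 bases corresponded to 0.131 to 0.174 RPKM, the reads scaled to exon length and library depth. The adipocyte markers Pparg, Cebpa, Fabp4, Adipoq, Plin1 and Lpl summed to 30.4 RPKM in Ad-GFP cells on day 0, 1999 RPKM on day 2, and to 15.7 and 490 RPKM in Ad-Cre cells. All 6 were lower in Ad-Cre cells at day 2. Of 6 brown fat markers, the defining genes Ucp1, with at most 1 read in any library, and Cidea, with 0 reads in all 4, were absent or nearly so, and Ppargc1a and Dio2 had at most 9 reads. The early regulators were present. Ebf2 went from 9.70 to 16.1 RPKM with Ad-GFP and from 4.77 to 11.1 RPKM with Ad-Cre, and Prdm16 from 0.554 to 2.14 RPKM and from 0.691 to 0.677 RPKM. Among 7 preadipocyte markers, 4 already lay more than 2.5-fold lower at day 0 where Cre had been expressed, against 4.17% of expressed genes. These were Pdgfra, Dlk1, Ly6a and Cd34, while Pdgfrb, Col1a1 and Thy1 were not past that limit. The 7 summed to 1866 RPKM with Ad-GFP and 1336 RPKM with Ad-Cre at day 0. In this bulk RNA, fewer cells of a type and less RNA per cell cannot be told apart. Macrophage, endothelial and muscle markers were near 0, at no more than 0.405 RPKM summed over any list. Mll4 itself (Kmt2d) had 6304 and 8530 reads at day 0 and day 2 with Ad-GFP, and 6316 and 5595 with Ad-Cre, and a count over the whole transcript cannot show the loss of the few floxed exons.

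The day 2 Ad-Cre library stood apart from the others in its trend over transcript length. Set against Ad-GFP cells at day 2, the median log2 ratio of expressed genes was 0.52 for 1201 transcripts under 1000 bases and -0.60 for 3230 transcripts over 4000 bases. At day 0 the same medians were -0.18 and 0.01. Among the 10 genes the lengths ran from 958 bases for Gsta4 to 9227 bases for Slc7a11. Log2 ratios of the 10 genes that use this library are therefore given both as deposited and with the trends over length and GC content removed, and among other genes the calls named here that end without the trends are said to. The part of this trend in the results was not tested.

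**Figure D1:**
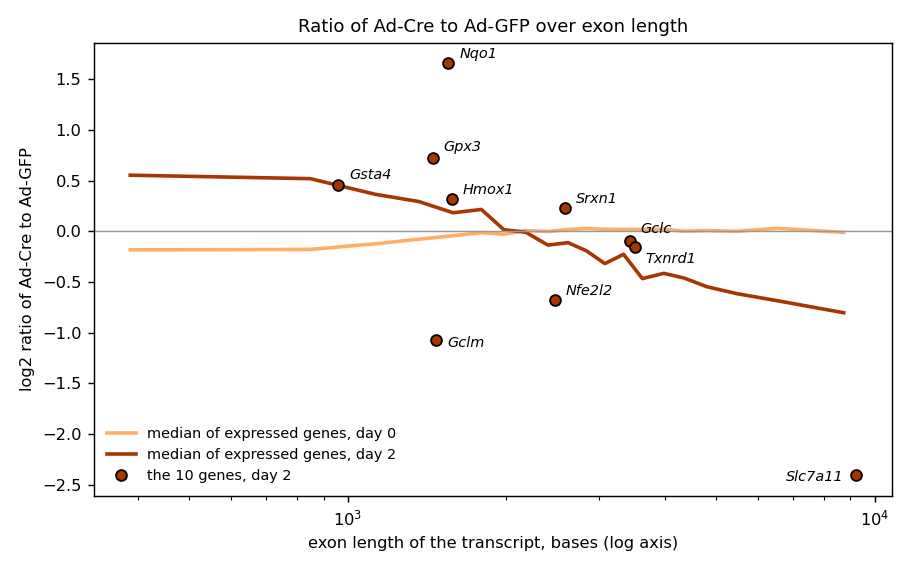
Log2 of Ad-Cre over Ad-GFP (y axis) against the exon length of the transcript in bases (x axis, log scale), with lines for the median of expressed genes in 20 bins of length at day 0 and day 2 and points for the 10 genes at day 2. The day 2 line falls from above 0 for short transcripts to below 0 for long ones, Slc7a11 (-2.41) lies below it and Nqo1 (1.66) above it.

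The antioxidant response element has the core TGACNNNGC, in which N is any base. It was searched on both strands from 250 bases before to 50 bases after the start of each RefSeq transcript (assembly GRCm38.p6), and 7 of the 10 genes had such a window. The genes with no window in the table were Hmox1, Gclc and Gsta4. The core was found in 4 of the 7 genes, or 4 of their 9 windows, and in 12.4% of all 32851 windows. The matches are shown because NRF2 acts on its targets through this element, with the matched bases in capitals and the window's strand read 5′ to 3′. The second Srxn1 match holds the broader TGANNNNGC and, within it, the AP-1 core TGAGTCA, which 5.2% of all windows hold on either strand.
Nfe2l2: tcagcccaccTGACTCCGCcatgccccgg
Gclm: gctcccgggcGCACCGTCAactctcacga
Txnrd1: ctggatttttGCTTTGTCAttctgacacg
Srxn1: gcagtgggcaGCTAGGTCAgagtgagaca
Srxn1 with AP-1 core: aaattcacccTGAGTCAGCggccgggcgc
The match of Nfe2l2 lay 240 bases before the transcript start (window chr2:75704614-75704913, minus strand) and that of Gclm 134 bases before it (chr3:122245307-122245606, plus strand). Txnrd1 has 3 windows, of which the second held the core 92 bases before its start (chr10:82858956-82859255, plus strand). In Srxn1 (chr2:152105274-152105573, plus strand) the first match shown lay 28 bases after the start and the second 45 bases before it. Other matches to the broader form in this window, 158 and 57 bases before the start, hold no AP-1 core and are not shown. The broader TGANNNNGC was found in 5 of the 7 genes, Slc7a11 included, and in 41.3% of all windows. The windows of Nqo1 and Gpx3 held no match to either, which says nothing of elements farther away. These are matches of letters, and binding was not measured.

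Across the 10 genes the RPKM values were not moved in one direction by induction. In Ad-GFP cells 6 were lower at day 2 than at day 0, with Nqo1, Srxn1 and Gsta4 past 2.5-fold and Txnrd1, Gpx3 and Hmox1 within it. Another 3 were higher, Slc7a11, Gclc and Gclm, and Nfe2l2 was about level. In Ad-Cre cells Slc7a11 and Gclm were lower at day 2 instead. At day 2, Ad-Cre cells held 3.17-fold more Nqo1 and 5.31-fold less Slc7a11 RNA per length than their Ad-GFP counterparts as deposited. On the log2 scale these were 1.66 and -2.41, or 1.83 and -1.39 without the length and GC trend. With a pseudocount of 1 RPKM both came within 2.5-fold, at 1.07 and -0.91. The lower counts were 37 and 43 reads.

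**Figure D2:**
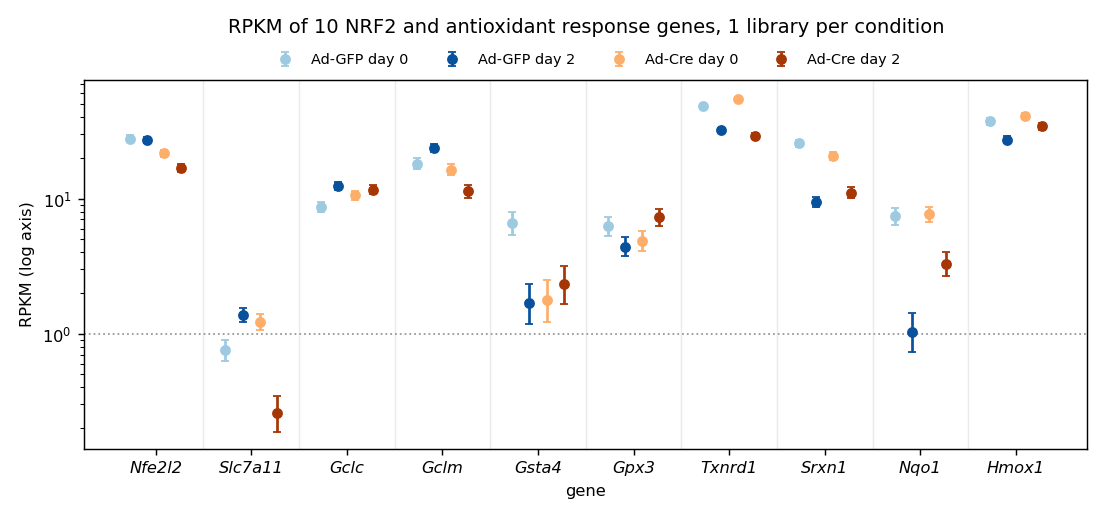
RPKM (y axis, log scale) of each of the 10 genes (x axis) in the 4 libraries, with bars for the exact Poisson 95% interval of the reads, which covers counting error only. The dotted line marks 1 RPKM. Slc7a11 was lowest in day 2 Ad-Cre cells at 0.258 RPKM, Nqo1 was lowest in day 2 Ad-GFP cells at 1.04 RPKM, and Gsta4 was highest in day 0 Ad-GFP cells at 6.55 RPKM.

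Txnrd1 had the highest RPKM of the 10 genes in 3 libraries, from 32.2 to 54.8 RPKM, and Hmox1 in the day 2 Ad-Cre library at 34.2 RPKM. Only 2 of the genes stood above Nfe2l2 in each library, Txnrd1 and Hmox1. Slc7a11 was lowest in 3 libraries and Nqo1 in the day 2 Ad-GFP library. In that library the 95% intervals of Nfe2l2 and Hmox1 overlapped, and in day 2 Ad-Cre cells those of Gclc, Gclm and Srxn1 did. Set among the 11861 symbols with an RPKM above 1 in at least 1 library, the day 0 Ad-GFP level of Txnrd1 lay at the percentile 91.8 and that of Slc7a11 at 4.74.

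Nfe2l2, the regulator itself (NM_010902, chr2:75513570-75542698 of NCBI37/mm9, minus strand, 5 exons), had 1181 reads or 27.8 RPKM in Ad-GFP cells at day 0 and 1536 reads or 27.1 RPKM at day 2. In Ad-Cre cells it had 1039 reads or 21.6 RPKM at day 0 and 751 reads or 16.9 RPKM at day 2. Both Ad-Cre libraries were thus below both Ad-GFP libraries. Below, the ratio between the cells is always Ad-Cre over Ad-GFP and the change is day 2 over day 0, both on the log2 scale and followed by an exact binomial 95% interval. For Nfe2l2 the day 0 ratio between the cells was -0.37 (-0.49 to -0.25), and the day 2 ratio -0.68 (-0.81 to -0.56). The day 0 ratio moved little without the length and GC trend, to -0.36, whereas the day 2 ratio moved to -0.22. As deposited, induction left Nfe2l2 within counting error in Ad-GFP cells, at -0.04 (-0.15 to 0.07). Without the trend this change was -0.34, outside that interval. In Ad-Cre cells the change was -0.35 (-0.49 to -0.22), or -0.22 without the trend.

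The genes that restrain NRF2 differed from each other. Keap1, its cytoplasmic anchor, had 30.0 and 33.3 RPKM at day 0 and day 2 with Ad-GFP, and 25.6 and 29.0 RPKM with Ad-Cre, so that its day 2 to day 0 log2 ratios were close, 0.15 and 0.18, or 0.27 and 0.08 without the trend. With Nfe2l2 as the denominator, Keap1 stood at 1.08 and 1.23 in day 0 and day 2 Ad-GFP cells. In day 0 and day 2 Ad-Cre cells it stood at 1.19 and 1.72, highest in the last as deposited. Between the cells at day 2 the log2 ratios were -0.20 for Keap1 and -0.68 for Nfe2l2 as deposited. Without the length and GC trend they were -0.38 and -0.22, with Keap1 then the lower. Bach1, the repressor that competes for the same elements, went from 15.0 to 9.40 RPKM in the presence of MLL4 (Ad-GFP) and from 19.2 to 4.20 RPKM in Ad-Cre cells. It was lower at day 2 in both, by a log2 ratio of -0.68 (-0.78 to -0.57) with Ad-GFP and -2.19 (-2.34 to -2.04) with Ad-Cre, or -0.91 and -1.54 without the length and GC trend. Nfe2l1, a relative of NRF2 that governs proteasome genes, went from 67.1 to 117 RPKM in Ad-GFP and from 70.9 to 44.2 RPKM in Ad-Cre cells, and its ratio between the cells at day 2 was -1.41 (-1.46 to -1.36), or -1.08 without the trend, within 2.5-fold.

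Slc7a11 is the light chain of the cystine transporter that brings in the rate-limiting building block of glutathione (NM_011990, chr3:50168858-50247535, minus strand, 12 exons). It had 120 reads or 0.756 RPKM in Ad-GFP cells at day 0 and 291 reads or 1.37 RPKM at day 2, against 219 reads or 1.22 RPKM and 43 reads or 0.258 RPKM in Ad-Cre cells. It was the lowest gene of the 10 in 3 libraries, but not in day 2 Ad-GFP cells, where Nqo1 was lower, and it passed 1 RPKM in 2 libraries, day 2 Ad-GFP and day 0 Ad-Cre. At day 2 the ratio between the cells was -2.41 (-2.91 to -1.94), while at day 0 it had the opposite sign, 0.69 (0.36 to 1.02). This transcript of 9227 bases is the longest of the 10, and removing the length and GC trend brought the day 2 ratio to -1.39, still past 2.5-fold. A pseudocount of 1 RPKM, larger than 2 of its 4 values, brought it to -0.91 and ended the call. Of its 50-base windows 5.01% matched elsewhere in the genome, so that a share of its reads is uncertain.

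Its heavy chain partner Slc3a2, which anchors several amino acid transporters in the membrane, was far more abundant, at 51.1 and 142 RPKM in Ad-GFP cells and 74.5 and 66.1 RPKM in Ad-Cre cells at day 0 and day 2. The light chain and the heavy chain were both higher at day 2 in Ad-GFP cells, with log2 ratios of 0.86 (0.55 to 1.18) and 1.47 (1.41 to 1.54). In Ad-Cre cells Slc7a11 was lower at day 2, -2.23 (-2.74 to -1.76), and Slc3a2 was nearly level at -0.17, or 0.01 when scaled by the sum of counts and -0.24 without the length and GC trend. The former was -1.37 without this trend, and -0.82 with the pseudocount. The RPKM of Slc3a2 was 67.6 times that of Slc7a11 in Ad-GFP cells at day 0 and 104 times at day 2. In Ad-Cre cells it was 61.2 times at day 0 and 256 times (95% interval 189 to 354) at day 2, the widest gap of the 4 libraries as deposited. That last gap sets the longest of these transcripts in the library with the length trend. Between the cells at day 2, the ratios were -2.41 for Slc7a11 and -1.10 for Slc3a2 as deposited, but -1.39 and -1.06 without the trend, which lie much closer together.

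Gclc and Gclm encode the catalytic and the modifier subunit of glutamate-cysteine ligase, the first enzyme of glutathione synthesis. Gclc (NM_010295, chr9:77602342-77642292, plus strand, 16 exons) had 512, 978, 707 and 720 reads, or 8.69 and 12.4 RPKM in Ad-GFP cells at day 0 and day 2 and 10.6 and 11.7 RPKM in Ad-Cre cells. Gclm (NM_008129, chr3:121948475-121972902, plus strand, 7 exons) had 459, 803, 470 and 300 reads, or 18.2 and 23.8 RPKM in Ad-GFP and 16.4 and 11.3 RPKM in Ad-Cre cells. At day 2 the catalytic subunit was about level between the cells while the modifier subunit was lower in Ad-Cre cells. The log2 ratio at day 2 was -0.09 (-0.23 to 0.05) for Gclc, positive at 0.04 with TMM factors and 0.49 without the length and GC trend, and -1.07 (-1.27 to -0.88) for Gclm, -0.82 without it. The change of Gclm was 0.39 (0.22 to 0.56) with Ad-GFP and -0.53 (-0.75 to -0.32) with Ad-Cre, or 0.09 and -0.61 without the trend. Gclm stood at 2.09, 1.91 and 1.55 times the RPKM of Gclc in the other libraries and at 0.971 times (0.846 to 1.11) in day 2 Ad-Cre cells. The annotated transcript matched to Gclm holds 4841 bases against 1470 counted by the authors, so its GC content and position are those of a longer form.

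Gsta4, a glutathione transferase for the lipid peroxidation product 4-hydroxynonenal, and Gpx3, a secreted glutathione peroxidase, use the glutathione so made. Gsta4 (NM_010357, chr9:78039773-78057155, plus strand, 7 exons) had 108 reads or 6.55 RPKM in Ad-GFP cells at day 0 and 37 reads or 1.68 RPKM at day 2. In Ad-Cre cells it had 33 reads or 1.77 RPKM at day 0 and 40 reads or 2.32 RPKM at day 2. The day 0 Ad-GFP library was thus alone in being high, and the intervals of the other 3 overlapped. Between the cells its day 0 ratio was -1.89 (-2.50 to -1.32), and its day 2 ratio 0.46 (-0.22 to 1.15). Without the length and GC trend these were -1.74 and 0.29, and the change in Ad-Cre cells, 0.39 (-0.31 to 1.10), turned to -0.13. With 33 to 40 reads in 3 libraries, differences among those 3 were not detectable at this depth.

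Gpx3 (NM_008161, chr11:54715955-54723879, plus strand, 5 exons) had 155 reads or 6.22 RPKM and 147 reads or 4.41 RPKM in Ad-GFP cells at day 0 and day 2, and 137 reads or 4.84 RPKM and 190 reads or 7.27 RPKM in Ad-Cre cells. It was highest in day 2 Ad-Cre and lowest in day 2 Ad-GFP cells, a log2 ratio of 0.72 (0.40 to 1.04) that fell to 0.25 without the length and GC trend. Its change from day 0 to day 2 was -0.49 (-0.83 to -0.16) in Ad-GFP cells and 0.59 (0.26 to 0.91) in Ad-Cre cells. The latter became 0.02 without the trend, about level, so that the rise of this transcript of 1450 bases in Ad-Cre cells did not hold under that setting.

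Txnrd1 and Srxn1 keep protein thiols reduced: Txnrd1 is the cytosolic thioredoxin reductase, and sulfiredoxin, the product of Srxn1, repairs overoxidized peroxiredoxins. Txnrd1 (NM_001042514, chr10:82296696-82360469, plus strand, 14 exons) had 2919, 2594, 3749 and 1833 reads, or 48.4 and 32.2 RPKM in Ad-GFP cells at day 0 and day 2 and 54.8 and 29.0 RPKM in Ad-Cre cells. It was lower at day 2 in both, by -0.59 (-0.67 to -0.51) and -0.92 (-1.00 to -0.84), and both became -0.73 without the length and GC trend. Its other 3 RefSeq transcripts share most of these reads and gave day 2 to day 0 ratios from -0.58 to -0.55 in Ad-GFP and from -0.91 to -0.89 in Ad-Cre cells. Between the cells the day 2 ratio was -0.15 (-0.24 to -0.06), with the sign turned to 0.32 without the trend.

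Srxn1 (NM_029688, chr2:151931252-151937112, plus strand, 2 exons) had 1141 reads or 25.7 RPKM in Ad-GFP cells at day 0 and 562 reads or 9.47 RPKM at day 2. In Ad-Cre cells it had 1040 reads or 20.6 RPKM at day 0 and 516 reads or 11.1 RPKM at day 2. Both day 2 libraries were below both day 0 libraries, as for Txnrd1, Nqo1 and Hmox1. The log2 ratio of day 2 to day 0 was -1.44 (-1.59 to -1.29) in Ad-GFP cells, past 2.5-fold although its interval reached inside that limit of -1.32, and -0.90 (-1.05 to -0.74) in Ad-Cre cells. These were -1.48 and -0.96 without the length and GC trend. The windows of Srxn1 matched elsewhere in 3.54% of cases and those of Gclm in 3.12%.

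Nqo1 reduces quinones in a step that avoids semiquinone radicals and is widely used as a readout of NRF2. It had 197 reads or 7.38 RPKM in Ad-GFP cells at day 0 and 37 reads or 1.04 RPKM at day 2 (NM_008706, chr8:109912125-109927106, minus strand, 6 exons). In Ad-Cre cells it had 231 reads or 7.63 RPKM and 92 reads or 3.29 RPKM. The day 0 libraries were alike, with a ratio between the cells of 0.05 (-0.23 to 0.33), and both day 2 libraries were lower. The fall was -2.83 (-3.38 to -2.32) in Ad-GFP cells and -1.21 (-1.58 to -0.86) in Ad-Cre cells, so that at day 2 Ad-Cre cells stood 1.66 (1.10 to 2.26) above Ad-GFP cells on the log2 scale. The interval of this last ratio included values under 2.5-fold, and a pseudocount of 1 RPKM brought it to 1.07. Without the length and GC trend it was 1.83, and the fall in Ad-Cre cells was -1.39, past 2.5-fold.

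Hmox1, haem oxygenase 1, turns haem into biliverdin, iron and carbon monoxide and is the classical target shared by NRF2 and BACH1. It was among the more level genes (NM_010442, chr8:77617490-77624495, plus strand, 5 exons), with 1012 and 991 reads (37.3 and 27.4 RPKM) at day 0 and day 2 with Ad-GFP, and 1252 and 972 reads (40.7 and 34.2 RPKM) with Ad-Cre. The day 2 to day 0 log2 ratio was -0.45 (-0.58 to -0.32) with Ad-GFP and -0.25 (-0.37 to -0.13) with Ad-Cre. The latter was -0.62 without the length and GC trend. At day 2 Ad-Cre cells stood 0.32 (0.19 to 0.45) above Ad-GFP cells, and 0.07 without the trend. None of these came near 2.5-fold.

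**Figure D3:**
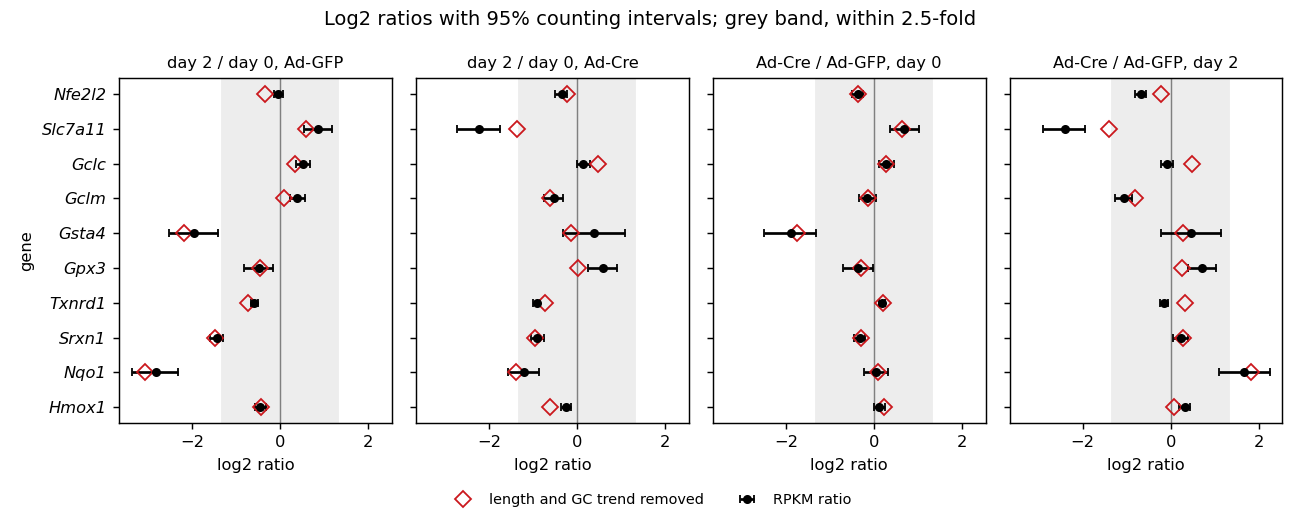
Log2 ratios (x axis) of the 10 genes (y axis) in the 4 comparisons, black points with exact binomial 95% intervals for the deposited values and open red diamonds for the values without the length and GC trend. The grey band holds ratios within 2.5-fold. In the first panel Nqo1, Srxn1 and Gsta4 lie left of it, and Slc7a11 lies left of it for both ratios that have day 2 Ad-Cre cells on top.

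A gene was called when its ratio passed 2.5-fold, the cutoff of the study. In Ad-GFP cells at day 2 against day 0, 3 of the 10 genes were called lower, Nqo1, Srxn1 and Gsta4, and 0 higher, where 13.0% of the 11861 expressed genes were called lower and 8.43% higher. In Ad-Cre cells 1 of 10, Slc7a11, was called lower and 0 higher, against 10.4% and 9.61% of expressed genes. Without the length and GC trend 2 were called lower, Nqo1 as well, against 9.03%. The median log2 ratio of the 10 genes was -0.47 with Ad-GFP and -0.44 with Ad-Cre, against 0.14 and -0.01 over all expressed genes. The adipocyte genes went the other way: Fabp4, a fatty acid carrier, had a log2 ratio of 7.74 with Ad-GFP and 5.72 with Ad-Cre, or 7.46 and 5.03 without the trend.

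Between the cells at day 0, 1 of 10 genes was called lower in Ad-Cre, Gsta4, and 0 higher, against 4.17% and 2.08% of expressed genes. At day 2, Nqo1 was called higher and Slc7a11 lower, 1 of 10 each, against 9.59% and 9.87%. These counts are too small to set the 10 genes apart from the expressed genes. The member medians were -0.05 at day 0 and 0.07 at day 2, beside -0.02 and -0.14 over all expressed genes, and the day 2 median was 0.26 without the length and GC trend, beside 0.00. With TMM factors the day 2 median of all genes moved to -0.01, which shifts every day 2 ratio by the same amount. The share of called genes that were higher in day 2 Ad-Cre cells moved with it from 49.3% to 59.5%, and that of genes higher at day 2 in Ad-Cre cells from 47.9% to 59.6% when scaled by the sum of counts. The 4 comparisons share libraries and are not independent of each other.

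The change from day 0 to day 2 was set side by side in both cells as the difference of the log2 ratios, Ad-Cre minus Ad-GFP. It passed 2.5-fold for 3 of the 10 genes. Nqo1 at 1.62 (1.00 to 2.23) and Gsta4 at 2.36 (1.50 to 3.21) were on the side of a higher ratio in Ad-Cre cells, where 11.7% of 11713 genes lay, and Slc7a11 at -3.09 (-3.66 to -2.53) on the other, where 10.9% lay. Without the length and GC trend these were 1.69, 2.05 and -1.96. Among the rest, Gclm at -0.92 (-1.19 to -0.66) and Srxn1 at 0.54 (0.33 to 0.75) kept values of -0.70 and 0.52, whereas Nfe2l2 went from -0.32 to 0.12, Gclc from -0.38 to 0.15, Hmox1 from 0.20 to -0.18, Txnrd1 from -0.33 to -0.00 and Gpx3 from 1.08 to 0.47. Of the partners, Slc3a2 had -1.65 (-1.74 to -1.55) and -1.67, Bach1 -1.51 and -0.64, and Keap1 0.03 and -0.20. Of all 11713 genes, 22.2% were higher at day 2 with Ad-GFP and lower with Ad-Cre, as Slc7a11 and Gclm were. Another 15.4% were the reverse, as Gsta4 and Gpx3 were as deposited. Without the trend Gsta4 had -2.18 with Ad-GFP and -0.13 with Ad-Cre, and Gpx3 -0.45 and 0.02. The intervals cover counting error only.

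**Figure D4:**
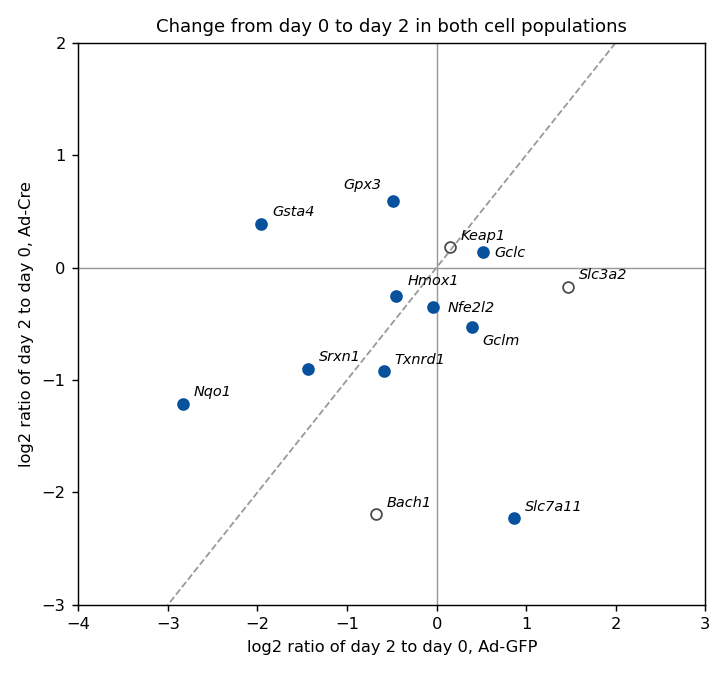
Log2 ratio of day 2 to day 0 in Ad-Cre cells (y axis) against that in Ad-GFP cells (x axis), filled for the 10 genes and open for Keap1, Bach1 and Slc3a2, each point from 1 library per condition. Genes on the dashed line changed alike in both, as Keap1 did (0.15 and 0.18), and Slc7a11 (0.86 and -2.23) and Gsta4 (-1.96 and 0.39) lie farthest from it.

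The wider pathway was described by lists of genes. Of 13 NRF2 regulators and partners, 12 were expressed, and 0 were called higher in any comparison, where 2.08% to 9.61% of expressed genes were. Maff, a small MAF partner, was called lower at day 2 in both cells, from 10.4 to 2.54 RPKM in Ad-GFP (log2 ratio -2.04) and from 13.1 to 4.13 RPKM in Ad-Cre cells (-1.67, or -2.25 without the length and GC trend), as was Bach2, a relative of Bach1, at -1.91 and -2.38 (-1.68 without it). These 2 were the only regulators called with Ad-GFP, where 13.0% of expressed genes were called lower, and with Ad-Cre, where 10.4% were, Bach1 was called as well. Without the trend 4 were called lower in Ad-Cre cells, against 9.03%, as Mafk went from -1.24 to -1.48. Between the cells 0 were called at day 0, where 2.08% of expressed genes were called higher and 4.17% lower. At day 2 only Nfe2l1 was called, as lower, against 9.87%, a call that ended without the trend and left 0. Of all 11861 expressed genes 838 were then called higher and 594 lower.

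Of 31 genes of glutathione synthesis, conjugation and export, 19 were expressed. In Ad-GFP cells 3 were called higher at day 2, against 8.43% of all expressed genes: Slc3a2 and the microsomal glutathione transferases Mgst1 (1.73 to 15.1 RPKM, log2 ratio 3.13) and Mgst3 (5.59 to 46.1 RPKM, 3.05). Another 5 were called lower, against 13.0%, all cytosolic glutathione transferases as Gsta4 is, among them Gstt1 (5.61 to 0.545 RPKM, -3.36), Gstm2 (-2.04) and Gstm1 (-1.47). Genes of the Gstm and Gstt families are close copies, so that their counts are uncertain. In Ad-Cre cells 3 were called higher at day 2, against 9.61%, Mgst1, Mgst3 (1.89) and Gstt2, and 1 lower, against 10.4%, the exporter Abcc4 (-1.55). The calls of Mgst3 and Abcc4 ended without the length and GC trend, at 1.06 and -1.08, while Gstt1 became a lower call, from -0.85 to -1.67. Between the cells at day 0, where 4.17% of expressed genes were called lower, 3 were, Mgst1 with 3 reads against 28 (-3.40, interval -5.77 to -1.71), Gstm7 with 13 against 53 (-2.21) and Gstt2 with 3 against 7 (-1.40, interval -3.99 to 0.73). At day 2, 4 were called higher with Ad-Cre, against 9.59%, all of the Gstm and Gstt families, with Gstm2 at 1.80 (1.54 without the trend), and the call of Gstt2 (1.59) ended at 1.03. A further 3 were called lower, against 9.87%, Mgst1 (-2.45, or -2.43), Mgst3 (-1.69, or -2.08) and Abcc4 (-1.59, but -1.02 without the trend, within 2.5-fold). Gsto1 was called lower only without the trend, at -1.43 against -1.03 as deposited.

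All 22 genes of iron handling, the thioredoxin system, quinone reduction and NADPH supply were expressed. In Ad-GFP cells 1 was called higher at day 2, Taldo1 of the pentose phosphate pathway (38.3 to 117 RPKM, 1.61), and 3 lower, against 8.43% and 13.0% of expressed genes, among them the epoxide hydrolase Ephx1 (-2.02) and the aldo-keto reductase Akr1b8 (-1.95). In Ad-Cre cells Fth1, the ferritin heavy chain, was called higher, from 355 to 2937 RPKM (3.05, or 2.13 without the length and GC trend). Called higher as well was the biliverdin reductase Blvrb (1.59, but 0.48 without it), and Ephx1 was lower (-1.97, or -2.23). This makes 2 and 1 of 22 against 9.61% and 10.4%. Without the trend 1 was called higher and 2 lower, as Akr1b8 went from -1.08 to -1.53. Of 11034 genes 703 were then called higher and 996 lower. Between the cells, Akr1b8 was called lower in Ad-Cre at day 0 (-1.49) and Idh1, a source of cytosolic NADPH, at day 2 (-1.53, but -0.95 without the trend). Of these 22 genes, 1 or 0 were called higher or lower between the cells on either day. Of all expressed genes, 2.08% were called higher and 4.17% lower at day 0, and 9.59% and 9.87% at day 2. Without the trend the day 2 list had 1 higher, Pir (1.44, from 1.17), and 0 lower. Of all 11861 expressed genes 838 were then called higher and 594 lower.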

How the data were processed

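RNA-Seq of 4 libraries was analysed, 1 for each virus (Ad-GFP, Ad-Cre) and day (0, 2), grouped by their labels. The other assays of the study were not analysed here. The authors aligned 50-base reads to NCBI37/mm9 and deposited the count of reads on the exons of each of 29082 RefSeq transcripts, without normalization. The deposited RPKM is that count divided by exon length and mapped reads. Mapped reads were recovered from both columns, and the counts sum to between 87.8% and 99.4% of them. How reads with several matches were treated, and the aligner, are not given in the sources used here. The library kit does not mark strand.

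Symbols came from a RefSeq table of assembly GRCm38.p6 and matched 97.8% of transcripts. Each symbol kept the transcript with most reads. Expressed genes had an RPKM above 1 in at least 1 library, and a call means a ratio past 2.5-fold. Intervals of 95% are exact binomial (ratios) or Poisson (levels), computed with scipy 1.17.1. They cover counting error only. Trends over length and GC content (20 bins of each, 5 rounds) were removed as an alternative. This used genes with at least 20 reads summed over both libraries compared, with GC content for 93.9% of expressed genes. Expressed genes outside this set have no value without the trends and are not counted as called. The removal also set the median log2 ratio of expressed genes to 0.00. As deposited that median was 0.14 for the change in Ad-GFP cells and -0.14 between the cells at day 2. TMM factors came from edgeR 4.0.16, and no test was run with it. Loci and exons came from GENCODE vM1 on NCBI37/mm9, and blastn 2.17.0 searched the genome for 50-base windows of each transcript. Promoter windows came from RefSeq (GRCm38.p6). The scripts were tested on simulated data. The 10 genes and the lists were chosen with earlier results of these data known. Genes outside the 10 are named when past 2.5-fold with at least 100 reads in the higher library, at most 4 a list and direction, besides Keap1, Bach1, Slc3a2 and marker genes. Other genes named within a complete count or for a call gained without the trends, such as Gstt2 and Mafk, were chosen after their values were seen. Alternatives were other scalings, a pseudocount of 1 RPKM, other cutoffs, read minimums, expression filters and transcripts.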

Additional observations from a re-analysis of the deposited data

Results flagged for a closer look

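In 3 genes the counting intervals of the change from day 0 to day 2 excluded 0 on opposite sides in Ad-GFP and Ad-Cre cells. The difference of the log2 ratios, Ad-Cre minus Ad-GFP, was -3.09 for Slc7a11, -0.92 for Gclm and 1.08 for Gpx3. The differences were not tested, since each condition has 1 library. A higher value at day 2 in Ad-GFP with a lower one in Ad-Cre cells, of any size, was found for 22.2% of 11713 genes, and the reverse for 15.4%. Without the length and GC trend the 2 changes of Slc7a11 were 0.58 and -1.37 and those of Gclm 0.09 and -0.61, while Gpx3 had -0.45 and 0.02.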

How the results depend on the processing

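Of 252 recomputed ratios and differences of single genes, 204 stayed within their counting interval, 48 moved outside it and 0 called values changed sign. The length and GC trend moved most. The number of the 10 genes called at day 2 against day 0 in Ad-GFP cells went from 3 to 1 with a cutoff of 4-fold. In Ad-Cre cells it went from 1 to 2 without the length and GC trend and with a cutoff of 2-fold, and to 0 with a pseudocount of 1 RPKM. Between the cells at day 0 it went from 1 to 0 with a cutoff of 4-fold or where the interval had to pass the cutoff. At day 2 it went from 2 to 0 with the pseudocount, and to 1 with the cutoff of 4-fold or the interval. With no expression filter, genes with few reads enter and the number of all genes called rose to 5332, 5270, 2955 and 5194 in these 4 comparisons, from 2547, 2379, 742 and 2308. No paired analysis was possible because the labels give 1 library per condition and no replicate numbers. For the same reason no replicate could be left out, and a difference between conditions cannot be told apart from one between libraries. Gsta4, Nqo1 and Slc7a11, with under 50 reads in a library, are the most limited by depth.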

Other observations

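Antioxidant enzymes outside the core NRF2 programme were also counted, 31 genes of which 30 were expressed. In Ad-GFP cells 7 were called higher at day 2 than at day 0, where 8.43% of all expressed genes were. Without the length and GC trend 4 were, where 727 of all 11861 expressed genes were. Prdx3 (1.46 to 1.26), Txn2 (1.35 to 1.30) and Txnip (1.40 to 1.12) came within 2.5-fold. Among the 7 were the peroxisomal catalase Cat (15.6 to 84.1 RPKM, log2 ratio 2.43), the mitochondrial superoxide dismutase Sod2 (7.40 to 34.0 RPKM, 2.20), the selenium carrier Selenop (4.90 to 55.6 RPKM, 3.50) and the stress-induced Sesn2 (1.69). Another 6 were called lower, against 13.0%, among them Gpx1, the cytosolic glutathione peroxidase (175 to 35.6 RPKM, -2.30), and Gpx7 (-2.64) and Gpx8 (-2.15), peroxidases of the endoplasmic reticulum.

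In Ad-Cre cells 2 were called higher at day 2, against 9.61% of expressed genes. These were Selenop (2.64) and Selenow (1.97, but 0.87 without the length and GC trend). Called lower was 1, Msrb3 (-1.71, but -1.20 without it), against 10.4%. Without the trend 2 were higher, Selenop and Sod2 (1.65), and 2 lower, Gpx1 (-1.55) and Gpx8 (-1.33). Of 11034 genes 703 were then called higher and 996 lower. At day 2, Cat had 21.0 RPKM in Ad-Cre against 84.1 RPKM in Ad-GFP cells (-2.00, or -1.64 without the trend). Selenop was lower as well (-2.40, or -1.97), as was Sesn3 (4.78 RPKM in Ad-GFP, 1.88 RPKM in Ad-Cre cells). Gpx7 (2.44, or 1.88) and Gpx8 (1.53, or 1.63) were higher. So were Selenow (70.5 RPKM in Ad-GFP, 275 RPKM in Ad-Cre cells), Msrb1 (24.9 and 75.7 RPKM) and Prdx4 (1.42, or 1.17). The calls of Selenow, Msrb1 and Prdx4 ended without the trend. In that comparison 5 of the list were called higher and 3 lower, against 9.59% and 9.87% of expressed genes. Without the trend 2 and 4 were, where 838 of all 11861 expressed genes were called higher and 594 lower. The adipocyte genes Pparg, a nuclear receptor that drives adipogenesis, and Fabp4 had log2 ratios of -2.36 and -2.00 in the same comparison, and their part in these values was not tested. Between the cells at day 0, 3 of the list were called lower, against 4.17%, Selenop already among them at -1.53 (95% interval -1.96 to -1.12), with Sesn3 at -1.63 and Sod3 at -1.81 on 12 and 37 reads. Cat was level at 0.04 (-0.11 to 0.19), and Gpx7 and Gpx8 both had 0.33.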
